A study of Mus musculus with 10 samples.

Results

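Checkpoint genes encode the surface proteins that restrain T cells in a tumor, and their counterparts on tumor and myeloid cells. Of the 35958 features in the count table, 10 were chosen by gene symbol. They comprise 5 ligand genes of tumor and myeloid cells (Cd274, Pdcd1lg2, Cd80, Cd86 and Cd276), 1 enzyme gene (Ido1) and 4 receptor genes of lymphocytes (Pdcd1, Lag3, Havcr2 and Tigit). RNA had been sequenced from 10 WEHI-164 tumors, a fibrosarcoma line grown under the skin of wild-type female BALB/c mice. Each tissue piece was taken at surgery, before any treatment, and a hydrogel loaded with poly(I:C), a double-stranded RNA mimic, was then laid on the tumor that remained. The 5 responders later regressed completely and the 5 non-responders showed no slowing of growth. Both groups carried the same cell line and genotype and neither had received the hydrogel or poly(I:C) when the tissue was taken. The methods describe an analgesic, buprenorphine, and isoflurane anesthesia for the mice at surgery. The mice were young adults by the methods, the labels name no sequencing batch, and a single transplanted line limits how far the tumors stand for others. The 9 mesenchymal and fibrosarcoma genes, led by Vim, summed to 11760 ± 447 CPM (counts scaled to a common library size) in responders. The sum was 12420 ± 804 CPM in the other group, and at least 11350 CPM in every tumor. Genes listed for the labelled cell type were thus present in each, and their source, the line or host cells, was not tested. Of these genes, 8 had a lower mean in responders and Vim was the other (4863 and 4665 CPM). The estimated counts of a library totalled 16002949 to 31160790 for responders, and 19863863 to 28276142 for the other group.

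PD-1, encoded by Pdcd1, sits on activated T cells and dampens signaling from the T cell receptor when it meets PD-L1 (Cd274) or PD-L2 (Pdcd1lg2). CD80 and CD86 are displayed by antigen-presenting cells and bind both the stimulatory receptor CD28 and the inhibitory receptor CTLA-4, while B7-H3 (Cd276) is found on many tumor and stromal cells. LAG-3 binds class II molecules, TIM-3 (Havcr2) binds galectin-9 and is also carried by myeloid cells, and TIGIT competes with the stimulatory receptor CD226 for PVR. Interferon gamma from T and NK cells is a known inducer of PD-L1 and of IDO1, the enzyme that degrades tryptophan to kynurenine. In a bulk sample, fewer cells of a type and less RNA per cell cannot be told apart.

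Cd274 and Pdcd1lg2, the ligands of PD-1, are genomic neighbors, and Cd276 was the 1 gene with a lower mean in responders, so the sequence before a start site of each is shown. Cd274 lies at chr19:29367455-29388095 and Pdcd1lg2 at chr19:29410919-29471161, both on the plus strand and 22823 bases apart, while Cd276 lies at chr9:58524298-58555437 on the minus strand (GRCm38, GENCODE annotation). RefSeq places some starts elsewhere, and its start of Cd276 lies inside the GENCODE gene. The 250 bases before the RefSeq start come from RefSeq on GRCm38.p6 and are written 5′ to 3′ on the gene's strand, with every CpG in capitals. Their positions are chr19:29367188-29367437 (Cd274), chr19:29410669-29410918 (Pdcd1lg2) and chr9:58555034-58555283 (Cd276, minus strand).
Cd274: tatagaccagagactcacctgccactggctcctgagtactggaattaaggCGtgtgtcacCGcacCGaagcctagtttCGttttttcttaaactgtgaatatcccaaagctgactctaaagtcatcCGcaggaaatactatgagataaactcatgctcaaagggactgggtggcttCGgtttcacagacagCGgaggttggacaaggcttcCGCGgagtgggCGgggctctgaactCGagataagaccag
Pdcd1lg2: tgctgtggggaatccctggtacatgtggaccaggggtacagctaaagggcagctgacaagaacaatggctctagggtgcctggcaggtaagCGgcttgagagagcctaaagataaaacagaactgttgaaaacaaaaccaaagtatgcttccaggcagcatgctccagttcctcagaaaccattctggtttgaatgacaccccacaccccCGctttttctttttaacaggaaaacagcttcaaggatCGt
Cd276: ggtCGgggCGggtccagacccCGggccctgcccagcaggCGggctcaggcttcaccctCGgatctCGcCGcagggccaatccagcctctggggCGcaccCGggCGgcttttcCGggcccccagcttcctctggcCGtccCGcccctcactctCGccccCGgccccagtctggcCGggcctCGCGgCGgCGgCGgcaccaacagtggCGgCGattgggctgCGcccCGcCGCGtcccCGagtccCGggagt
The Cd276 window held 29 CpG, a number reached or passed by 6.78% of the 32851 windows in the table, and its GC content was 77.6%. Cd274 had 11 CpG and Pdcd1lg2 had 3, against a median of 6 over all windows. The table held windows for 7 of the 10 genes, and the others were Tigit with 5 CpG, Cd80 and Pdcd1 with 3 each and Havcr2 with 2. Both strands were searched for TTCNNNGAA, the core of sites that STAT factors bind, and for 2 copies of GAAA spaced by 2 bases, the core of sites that interferon regulatory factors bind. These patterns can overlap, since both contain GAA. TTCNNNGAA occurred in 7.02% of all windows and the paired GAAA in 2.98%, and 0 of the 7 windows matched either. Of 12 interferon gamma target genes with a window, 5 held TTCNNNGAA and 8 held the paired GAAA. A missing match says only that these letters are not in this window.

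Responder 5 stood apart from the other responders in lymphocyte genes before any group is compared. Its 10 T cell markers summed to 17.3 CPM, against 33.5 to 47.0 CPM in the other 4 responders and 19.7 to 37.8 CPM in non-responders. Its 7 NK cell markers summed to 27.0 CPM, against 70.1 to 102 CPM in the other responders and 24.1 to 50.4 CPM in non-responders. Its 12 macrophage markers, at 2572 CPM, were also below the other responders (2624 to 3181 CPM). Its label was kept, and the group differences of the checkpoint genes are given with and without it, as are the slopes whose call it changes. Responder 5 was singled out from these same data, so larger differences of lymphocyte genes without it are partly built into that choice.

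The first question was whether checkpoint transcripts differed between responders and non-responders before treatment. After adjustment over all 15767 features that passed a filter on low counts, 0 features differed between the groups (0%; edgeR's quasi-likelihood test, adjusted p under 0.05), and none of the 10 checkpoint genes did. DESeq2 called 1 feature, limma-voom called 0, and 1294 features (8.21%) had an unadjusted p under 0.05 in edgeR. Of the checkpoint genes, 9 had a higher mean in responders, against 48.6% of all features with a fold change above 0. An unadjusted p under 0.05 with a higher level in responders was found for 5 of the 10 (Cd274, Pdcd1lg2, Cd80, Ido1 and Tigit), against 4.2% of all features. In either direction, 9 of the 10 had such a p without responder 5, against 13.6% of all features in that fit, and 8 without non-responder 1, against 9.78%. Only 3 of the 10 had it without responder 11, against 5.35% of features. Every gene had at least 1 pair of tumors out of order: every responder exceeded every non-responder in 0 of the 10, against 0.336% of all features. Without responder 5 the remaining 4 responders exceeded every non-responder in 2 of the 10, Cd274 and Cd80, against 2.11% of features. They were all below every non-responder in 0 of the 10, against 2.61% of features.

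**Figure D1:**
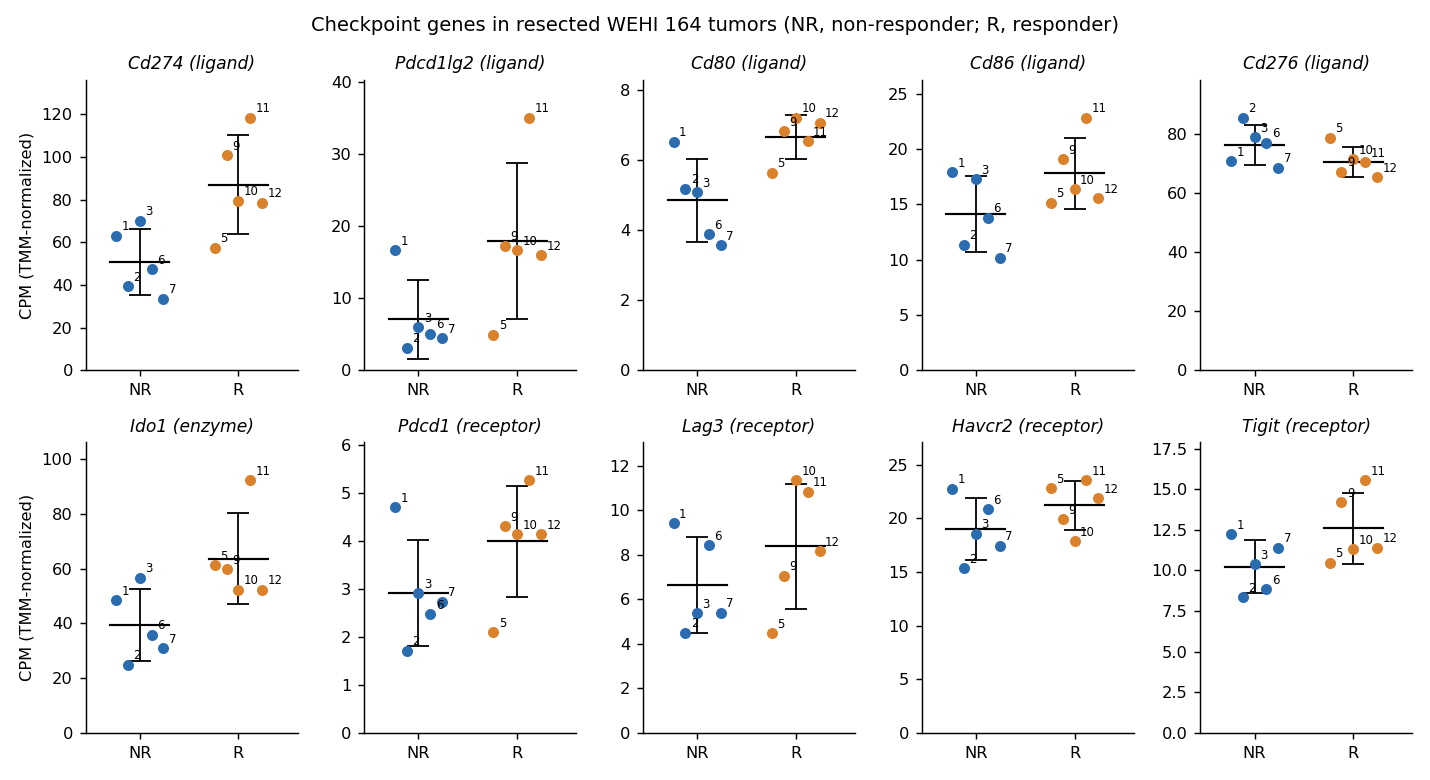
Level of each checkpoint gene in each tumor (CPM after TMM normalization; each point is a tumor with its number, the long bar the group mean and the whiskers the SD, 5 tumors per group). Responder 5 is the lowest of its group for Cd274, Pdcd1lg2, Cd80, Cd86, Pdcd1, Lag3 and Tigit, and responder 11 is the highest of its group for Cd274, Pdcd1lg2, Cd86, Ido1, Pdcd1, Havcr2 and Tigit.

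Among the ligands, Cd274 stood at 63.0, 39.3, 70.1, 47.4 and 33.5 CPM in non-responders 1, 2, 3, 6 and 7, and at 57.5, 101, 79.5, 118 and 78.6 CPM in responders 5, 9, 10, 11 and 12. Responders 9 to 12 were above every non-responder, and responder 5 fell between non-responders 6 and 1. Responders averaged 86.9 ± 23.3 CPM, and non-responders 50.7 ± 15.5 CPM (SD, n = 5 each). The fold change on the log2 scale was 0.78 (SE 0.21, 95% interval 0.32 to 1.24), the 56th smallest p of all features, with an adjusted p of 0.580 in edgeR. Without responder 5 it was 0.91 with an adjusted p of 0.0874, the lowest that any checkpoint gene reached there. With a tumor left out the difference ran from 0.65 (responder 11) to 0.93 (non-responder 3).

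Pdcd1lg2, in the same tumors and order, stood at 16.7, 3.11, 5.94, 5.06 and 4.42 CPM in non-responders and at 4.93, 17.3, 16.6, 35.1 and 15.96 CPM in responders. The tumors fell into a low set, made of responder 5 and 4 non-responders, and a high set, made of non-responder 1 and the other responders, so the groups overlapped at both ends. Its highest tumor was 11.3-fold above its lowest, the widest range of the 10 genes, and Cd276's was 1.31-fold. The group difference was 1.37 (log2 scale, SE 0.49, 95% interval 0.31 to 2.42; edgeR adjusted p = 0.580), and 1.62 without responder 5 (adjusted p = 0.121 in edgeR). With a tumor left out it ran from 0.96 (responder 11) to 1.98 (non-responder 1).

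Cd80 stood at 5.63, 6.82, 7.20, 6.54 and 7.06 CPM in responders against 6.51, 5.18, 5.08, 3.88 and 3.56 CPM in non-responders. Only non-responder 1 reached the range of the responders. Its difference was 0.46 (log2 scale, SE 0.15; edgeR adjusted p = 0.580). Cd86 ranged from 15.2 to 22.8 CPM in responders (median 16.4) and from 10.2 to 17.9 CPM in non-responders (median 13.8). The groups overlapped and the 95% interval of its log2 difference ran from -0.01 to 0.70 (edgeR adjusted p = 0.614). Cd276 was the 1 checkpoint gene with the lower mean in responders, at 70.5 ± 5.11 CPM against 76.1 ± 6.76 CPM. Its difference of -0.11 had a 95% interval of -0.25 to 0.04 on the log2 scale (edgeR adjusted p = 0.693).

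Ido1 stood at 48.6, 24.9, 56.8, 35.9 and 30.99 CPM in non-responders and 61.3, 59.9, 52.4, 92.3 and 52.3 CPM in responders. Here responder 5 was in the upper part of its group, unlike for Cd274 and Pdcd1lg2, and non-responder 3 was the 1 non-responder above a responder. The difference was 0.70 (log2 scale, SE 0.21, 95% interval 0.24 to 1.16; edgeR adjusted p = 0.580), and it was 0.72 without responder 5. With a tumor left out it ran from 0.53 (responder 11) to 0.87 (non-responder 3).

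Of the lymphocyte receptors, Tigit alone had a 95% interval above 0. Pdcd1, which averaged 3.99 ± 1.16 CPM in responders against 2.91 ± 1.10 CPM in non-responders (SD, n = 5), stood at 2.10 CPM in responder 5 and at 4.14 to 5.27 CPM in the other responders. In non-responders it ran from 1.72 to 2.92 CPM apart from non-responder 1 at 4.71 CPM, so both groups held a tumor that looked like the other group. Its log2 difference of 0.46 had an interval of -0.12 to 1.04 (edgeR adjusted p = 0.680).
Lag3, at 8.38 ± 2.82 and 6.63 ± 2.16 CPM, ranged from 4.47 CPM in responder 5 to 11.4 CPM in responder 10. Its log2 difference was 0.34, with an interval of -0.21 to 0.90. Havcr2 was the steadiest receptor, at 21.2 ± 2.31 and 19.0 ± 2.89 CPM, with a log2 difference of 0.16 and an interval of -0.07 to 0.40. Tigit, at 12.6 ± 2.17 and 10.2 ± 1.64 CPM, had a log2 difference of 0.30 and an interval of 0.01 to 0.59. The edgeR adjusted p was 0.745 for Lag3, 0.708 for Havcr2 and 0.602 for Tigit. Without responder 5 the log2 differences were 0.63 for Pdcd1, 0.51 for Lag3, 0.14 for Havcr2 and 0.36 for Tigit, and those of the ligands Cd80, Cd86 and Cd276 were 0.51, 0.40 and -0.15, with an edgeR adjusted p of at least 0.188 for each of these 7 genes. Other single tumors moved some of these small differences by over 1.5 times: Pdcd1 was at 0.70 without non-responder 1, Lag3 at 0.22 without responder 10, Havcr2 at 0.10 and Cd276 at -0.06 without non-responder 2. The median log2 difference was 0.46 over the 5 ligands and 0.32 over the 4 receptors, beside -0.0036 over all features, and the difference between these sets was not tested.

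**Figure D2:**
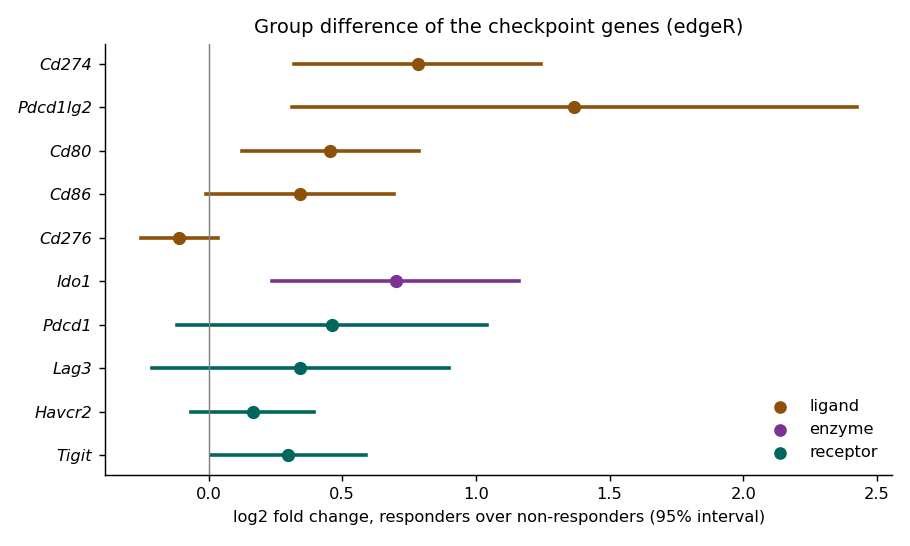
Difference of each checkpoint gene between responders and non-responders (points, log2 fold change from edgeR; bars, 95% intervals; colors, ligand, enzyme or receptor). The intervals of Cd274, Pdcd1lg2, Cd80, Ido1 and Tigit lie above 0, and those of Cd86, Cd276, Pdcd1, Lag3 and Havcr2 include 0.

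Ratios between paired genes within a tumor asked whether the members of an axis moved unequally, on log2(CPM + 1). The log2 ratio of Cd274 to Pdcd1 was 4.13 ± 0.16 in responders and 3.71 ± 0.38 in non-responders (SD, n = 5), a difference of 0.42. It was 3.95 to 4.26 in responders, and 4 of the 5 non-responders were below every responder, with non-responder 3 at 4.18. The exact two-sided permutation test gave p = 0.0397, or 0.159 adjusted over the 4 ratios, where 5 tumors against 5 cannot go below 0.00794. Without non-responder 3 the difference was 0.54 (exact permutation test, adjusted p = 0.03175), and that was the 1 alternative that passed. With a pseudocount of 0.5 or 0.1 in place of 1 it was 0.38 or 0.33, with an adjusted exact permutation p of 0.381 or 0.413. The ratio of Cd274 to Pdcd1lg2 was lower in responders by 0.45 on average (2.39 ± 0.58 against 2.84 ± 0.61; exact permutation p = 0.254, adjusted 0.508). Single tumors moved it by over 1.5 times, to -0.69 without non-responder 1, -0.68 without responder 5 and -0.29 without responder 11. Those of Cd80 to Cd86 (difference 0.08) and Tigit to Pdcd1 (difference -0.09) had an adjusted exact permutation p of 0.690 each. With a tumor left out the former ran from 0.014 (responder 12) to 0.17 (responder 11), and the latter from -0.19 (responder 5) to -0.028 (non-responder 2).

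Levels of different genes can be compared only per length, here as CPM per kilobase of annotated exons over all 10 tumors. Ido1 was highest at 28.2 ± 10.4 (SD, n = 10), followed by Cd276 at 20.04 ± 1.74 and Cd274 at 19.0 ± 7.38. Ido1 exceeded Cd276 in 7 of 10 tumors and Cd276 exceeded Cd274 in 6, so the order at the top was not the same in every tumor. The order also depended on the group: Cd274 averaged 24.0 in responders, above Cd276 at 19.3, and 14.0 in non-responders, below Cd276 at 20.8. Tigit, at 12.4 ± 2.39, was the highest receptor and was above Havcr2 (7.39 ± 1.001) in all 10 tumors. Havcr2 was above Pdcd1lg2 (6.38 ± 5.06), and Pdcd1lg2 above Cd86 (4.35 ± 1.01), in 5 of 10 tumors each, so these did not differ beyond their spread. Pdcd1lg2 averaged 9.16 in responders, above Havcr2 at 7.79, and 3.59 in non-responders, below Havcr2 at 6.98. Cd86 averaged 4.86 and 3.85, so it was below Pdcd1lg2 in responders and above it in non-responders. Lag3 followed at 3.56 ± 1.21, below Cd86 in 8 of 10 tumors. Pdcd1 at 1.79 ± 0.63 was below Lag3 in all 10, and Cd80 at 1.55 ± 0.35 was below Pdcd1 in 8. Divided by the longest transcript instead, Cd80 (1.81) and Pdcd1 (1.79) changed places.

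**Figure D3:**
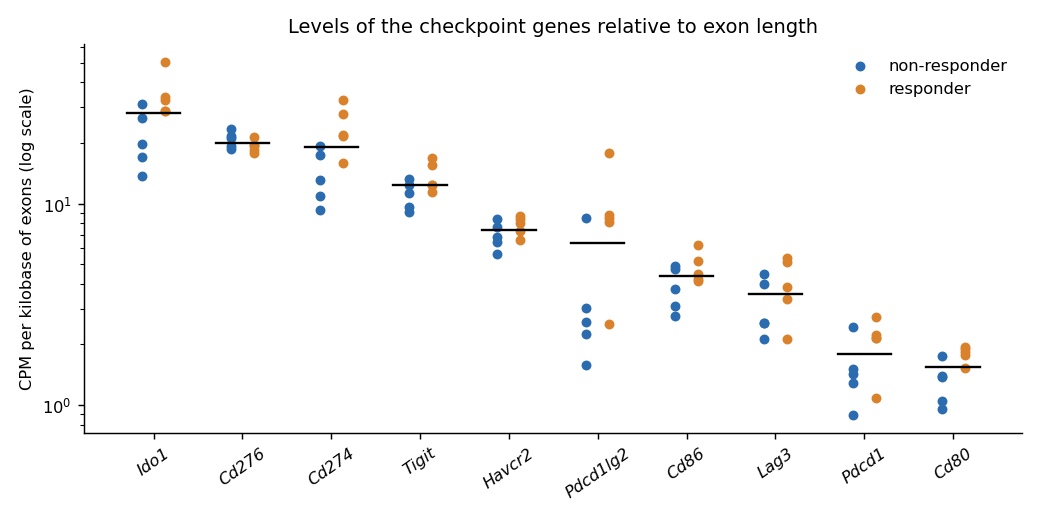
CPM per kilobase of exons of each checkpoint gene on a log axis (each point is a tumor, colored by group; horizontal bars are means over 10 tumors). Ido1, Cd276 and Cd274 are highest, and Pdcd1lg2 has the widest spread, from 1.59 to 17.9.

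The next question was which checkpoint genes followed the immune marker and interferon target transcripts of a tumor, with the group held in the model. A T and NK cell score was the mean log2(CPM + 1) of 17 markers, a macrophage score that of 12 markers, and an interferon gamma score that of 16 target genes such as Gbp2, Irgm2 and Cxcl9. No checkpoint gene is part of a score. The interferon gamma score is named after its gene list, and which interferon lies behind its level was not tested. The paper states that computation cannot tell which type of interferon drives such a signature. The T and NK cell score was 2.26 ± 0.41 in responders and 1.90 ± 0.25 in non-responders (SD, n = 5), with responder 5 the lowest of all at 1.56. The macrophage score was 7.37 ± 0.14 and 7.26 ± 0.13, and the interferon gamma score 7.65 ± 0.16 and 7.24 ± 0.38. The scores are not independent over these 10 tumors: T and NK cell with macrophage r = 0.881, macrophage with interferon gamma r = 0.704, and T and NK cell with interferon gamma r = 0.591, given as a description.

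Of the 10 genes, 4 rose with the T and NK cell score at an adjusted p under 0.05 over all features, against 1.89% of all features. Pdcd1lg2 was steepest, at 2.79 log2 units per unit of score (SE 0.28, edgeR adjusted p = 0.000573), and Pdcd1 followed at 1.42 (SE 0.22, adjusted p = 0.00445 in edgeR). Both passed the threshold with each of the 10 tumors left out in turn. Lag3 rose at 1.31 (SE 0.24, edgeR adjusted p = 0.0104), and without responder 5 the slope was 1.503 but did not pass (adjusted p = 0.125). Cd274 rose at 0.96 (SE 0.22, edgeR adjusted p = 0.0403), and this passed in only 4 of the 10 fits with a tumor left out. Its adjusted p in edgeR was 0.107 without non-responder 1, 0.0827 without non-responder 2, and 0.171, 0.0632, 0.178 and 0.0597 without responders 5, 9, 11 and 12. The slope itself ran from 0.87 without responder 11 to 1.31 without responder 5. Havcr2 had a slope of 0.15 (adjusted p = 0.769 in edgeR) and Tigit of 0.50 (adjusted p = 0.170). Without responder 5 these were 0.77 and 0.79, with an edgeR adjusted p of 0.142 and 0.295. Cd276 had the 1 slope below 0, at -0.21 (adjusted p = 0.325 in edgeR), and Cd80, Cd86 and Ido1 lay between 0.36 and 0.61 without passing. Without responder 5 the slope was 0.40 for Cd80, 1.22 for Cd86 (edgeR adjusted p = 0.0902) and 1.703 for Ido1 (0.0946). Leaving out other tumors lowered some slopes by over 1.5 times. That of Cd80 was 0.16 without non-responder 1 and that of Ido1 0.29 without responder 11, and Havcr2 was at 0.034, 0.040 and 0.091 without non-responder 1, non-responder 2 and responder 11. Whether the slopes of 2 genes differ was not tested. With this score in the model the group difference of Pdcd1lg2 was 0.30 in place of 1.37, that of Cd274 0.42, that of Ido1 0.52, and those of Pdcd1 and Lag3 were -0.07 and -0.15 (log2 scale, edgeR adjusted p = 0.999 each). With the macrophage score instead these 5 were 0.77, 0.51, 0.49, 0.16 and 0.037 in the same order. With the interferon gamma score they were 0.61, 0.33, 0.18, 0.14 and 0.16, and none passed with either score.

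**Figure D4:**
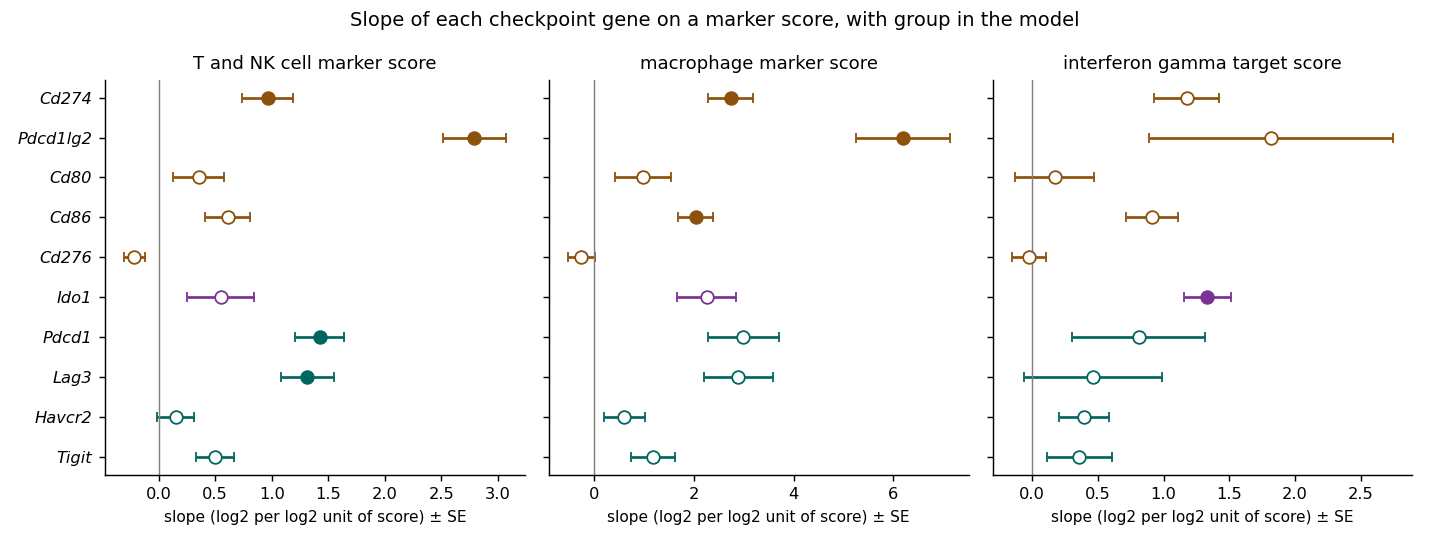
Slope of each checkpoint gene on the T and NK cell, macrophage and interferon gamma scores, with group in the model (points, log2 units per log2 unit of score; bars, SE; filled points have an edgeR adjusted p under 0.05 over all features). Pdcd1lg2, Pdcd1, Lag3 and Cd274 are filled in the first panel, Pdcd1lg2, Cd274 and Cd86 in the second, and Ido1 in the third.

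With the macrophage score, 3 of 10 genes rose, all ligands, against 1.49% of features. Pdcd1lg2 had a slope of 6.19 (SE 0.94, edgeR adjusted p = 0.00826), Cd274 of 2.73 (SE 0.45, adjusted p = 0.0134 in edgeR) and Cd86, the costimulatory ligand of macrophages and dendritic cells, of 2.03 (SE 0.35, adjusted p = 0.0153 in edgeR). These slopes are larger than those on the first score partly as a matter of scale, since the macrophage score spans 0.42 log2 units over the tumors and the T and NK cell score 1.07. The calls depended on single tumors. None of the 3 passed without responder 11 (edgeR adjusted p of 0.0975 for Cd274, 0.0834 for Pdcd1lg2 and 0.122 for Cd86), Cd274 alone passed without non-responder 1 (0.0738 for Pdcd1lg2 and 0.0974 for Cd86), and Cd274 did not pass without responder 5 (0.0681). The slopes themselves were 2.725 (Cd274), 6.06 (Pdcd1lg2) and 1.99 (Cd86) without responder 11. They were 5.27 (Pdcd1lg2) and 2.01 (Cd86) without non-responder 1, and 2.54 (Cd274) without responder 5. Pdcd1 (slope 2.99, adjusted p = 0.0576 in edgeR) and Lag3 (slope 2.89, adjusted p = 0.0603) fell just outside. These 2 receptors passed in limma-voom (adjusted p of 0.0386 and 0.0436), and each passed in 2 of the 10 edgeR fits with a tumor left out. The calls thus did not set ligands apart from receptors. Lymphocyte markers rose with this score as well: 2 of 10 T cell markers, 1 of 7 NK cell markers and 2 of 2 CD8 markers, and 0 of each without responder 11.

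With the interferon gamma score, 1 of 10 genes rose, against 0.457% of features. It was Ido1, at 1.33 (SE 0.18, edgeR adjusted p = 0.00401), and the call held with each of the 10 tumors left out (adjusted p from 0.00370 to 0.0495). Cd274 at 1.17 and Cd86 at 0.91 had an adjusted p of 0.0932 each in edgeR. Without responder 5 Cd274 passed as well (slope 1.14, edgeR adjusted p = 0.00780). Pdcd1lg2 at 1.82 had an SE of 0.93, and Cd276 at -0.03 was near 0. The slope of Pdcd1lg2 ran from 1.216 without responder 11 to 3.255 without non-responder 3, and passed in neither fit. Responder 5 shows the split between these scores: its interferon gamma score of 7.61 was within the range of the other responders (7.47 to 7.89), its Ido1 was the second highest of its group, and its T and NK cell score, Pdcd1 and Pdcd1lg2 were the lowest of its group.

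**Figure D5:**
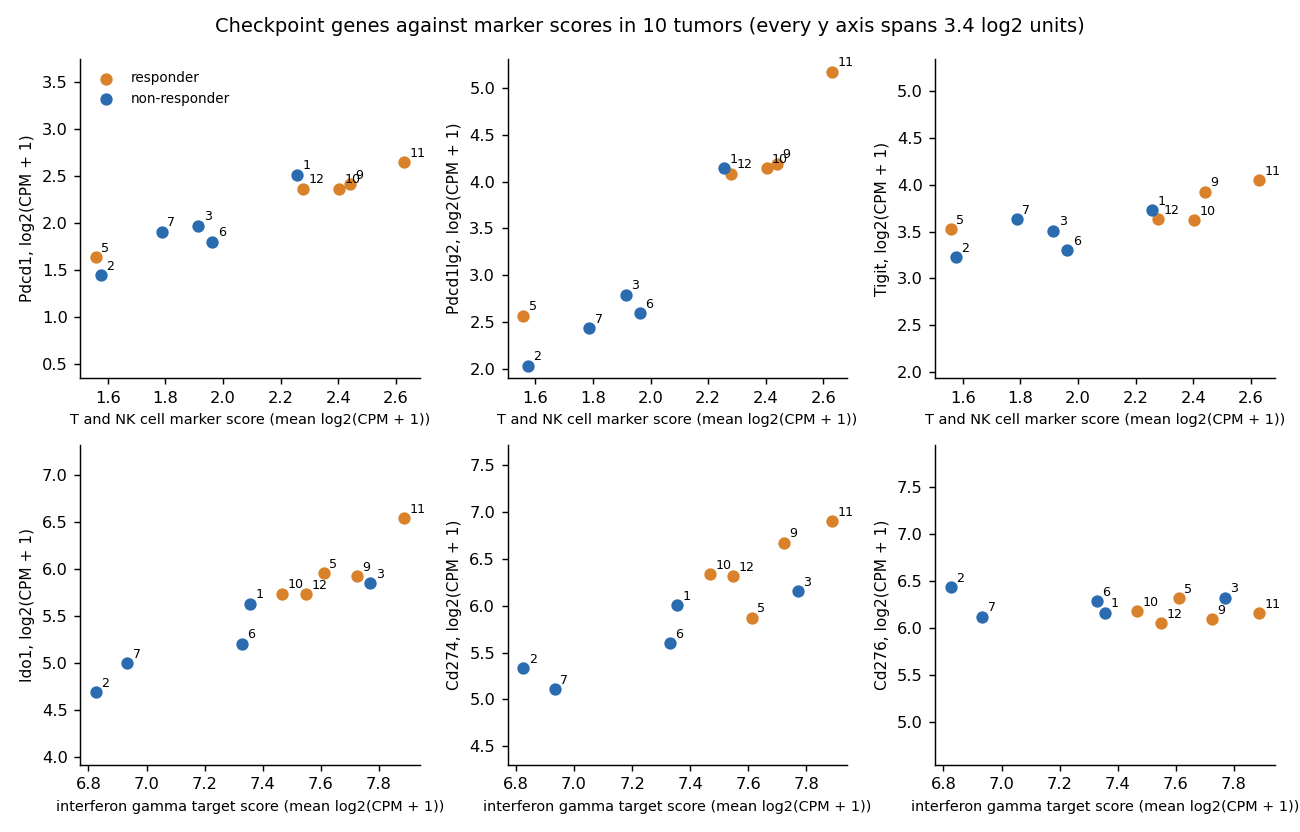
Pdcd1, Pdcd1lg2 and Tigit against the T and NK cell score, and Ido1, Cd274 and Cd276 against the interferon gamma score (log2(CPM + 1) on both axes; each point is a tumor with its number, colored by group). Pdcd1 and Pdcd1lg2 are low in responder 5 and non-responder 2 and high in non-responder 1 and responders 9 to 12, while Cd276 stays within 6.05 to 6.43 over the whole range.

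Among tumors of the same group, Pdcd1lg2 and Pdcd1 moved most closely together of all pairs of checkpoint genes (Pearson r of the deviations from the group means 0.97 over 10 tumors, given as a description). Cd274 was closest to Cd86 (r = 0.952), and its r was 0.794 with Pdcd1lg2, its genomic neighbor, and 0.743 with Pdcd1. Cd276 had a negative r with each of the other 9 genes, from -0.07 with Cd80 to -0.73 with Pdcd1. Of 13065 features with a mean of at least 1 CPM, the 5 most like Cd274 were C1s1 (0.971), Rassf5 (0.963), Hk3 (0.961), Cd52 (0.956) and Il13ra1 (0.955). Among those most like Pdcd1 were Mfsd7a (0.980), Cd226 (0.976), Cd200 (0.973) and Pdcd1lg2. All share the same 10 libraries and their differences in composition.

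The neighbors of Cd274 and Pdcd1lg2 within 200 kb were examined beside them. Plgrkt, which encodes a plasminogen receptor and lies just before Cd274 on the other strand, averaged 28.5 ± 1.41 CPM in responders, against 24.6 ± 1.58 CPM in non-responders (SD, n = 5). Its difference of 0.22 (log2 scale, SE 0.06) had the 42nd smallest p of all features (edgeR adjusted p = 0.580), ahead of Cd274. Unlike Cd274, its slope on the T and NK cell score was 0.06 (edgeR adjusted p = 0.840). Jak2, the kinase below the interferon gamma receptor, differed by 0.15 (adjusted p = 0.666 in edgeR), Insl6 by 0.11, Ric1 by 0.10 and Ermp1 by -0.06, and Rln1 did not pass the filter. Cd274, Pdcd1lg2 and Cd276 each overlap an annotated antisense gene, and without knowledge of strand in the counting such reads could not be told apart.

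Among the partners of these proteins, Ctla4, the inhibitory receptor for CD80 and CD86, was listed at 0 in 8 of the 10 tumors and at 9 and 2 counts in non-responder 2 and responder 11. Foxp3, the regulatory T cell factor gene, named after its values were seen, had at least 59 counts in every tumor, and Cd28 had at least 27. An estimate of 0 from this kind of counting can be a failed one, so no level is drawn from it. Cd28, the stimulatory counterpart, differed by 0.54 (log2 scale, unadjusted p = 0.0888 in edgeR across all features) and rose with the T and NK cell score at 1.45 (edgeR adjusted p = 0.0208; 0.209 without responder 5). Rgmb, a further partner of PD-L2, differed by -0.11. The counts of the lists below read against 48.6% of all features with a fold change above 0 and 4.2% higher with an unadjusted p under 0.05. Of 11 partners of the receptors 9 passed the filter, 6 with a higher mean in responders and 1 with an unadjusted p under 0.05, and their median log2 difference was 0.13. That 1 was Cd96, a receptor of NK and T cells for PVR, at 1.90 ± 0.99 and 0.723 ± 0.459 CPM (difference 1.38, SE 0.46, edgeR unadjusted p = 0.0106). Cd226, the stimulatory rival of TIGIT, differed by 0.57 and rose with the T and NK cell score at 1.45 (edgeR adjusted p = 0.00888; 0.109 without responder 5). Nectin2, a ligand of TIGIT, differed by 0.13.

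Of the 9 enzymes of tryptophan and kynurenine metabolism beside Ido1, all passed the filter and 3 had a higher mean in responders, with a median difference of -0.07. Ido2, the close relative of Ido1, was the 1 with an unadjusted p under 0.05 (6.20 ± 1.41 and 3.94 ± 1.62 CPM; difference 0.67, unadjusted p = 0.0188 in edgeR). Kyat1 (-0.14) and Tdo2 (-0.28), the tryptophan dioxygenase gene, did not pass.

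Of 16 other inhibitory receptors and ligands 14 passed the filter, 12 with a higher mean in responders (48.6% of all features) and 3 of those with an unadjusted p under 0.05 (4.2% of all features; median difference 0.18). Klrg1, a receptor of differentiated NK and T cells, stood at 4.28 ± 2.58 and 1.33 ± 0.47 CPM (difference 1.699, SE 0.45, edgeR unadjusted p = 0.00238). The myeloid genes Lilrb4a (0.35, unadjusted p = 0.0105 in edgeR) and Sirpa (0.28, unadjusted p = 0.0339), which encodes the receptor for CD47, differed less. Of 12 costimulatory genes 10 passed, 9 higher and 3 with an unadjusted p under 0.05 (median difference 0.23). Tnfrsf9, the 4-1BB gene, stood at 58.6 ± 17.2 and 39.0 ± 4.35 CPM (0.59, edgeR unadjusted p = 0.00715), Tnfrsf18, the GITR gene, differed by 0.61 (unadjusted p = 0.0385 in edgeR), and its ligand gene Tnfsf18 differed by 1.59 on 1 to 11 counts per tumor. In all 10 tumors no gene of any list had an adjusted p under 0.05 for the group difference. Without responder 5, 9 of 15695 features did, 2 of them listed genes: Klrg1 (1.98 on the log2 scale, edgeR adjusted p = 0.0391) and Tnfrsf9 (0.75, adjusted p = 0.0301 in edgeR). That tumor was singled out by its low T and NK cell markers, so these 2 calls are no separate evidence of a group difference.

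Of 7 genes of the interferon gamma receptor and its signaling, 7 had a higher mean in responders and 3 an unadjusted p under 0.05 (median difference 0.15). Among them were Ifng itself (2.55 ± 0.97 and 1.42 ± 0.52 CPM; difference 0.86, unadjusted p = 0.0144 in edgeR) and Irf1 (0.41, unadjusted p = 0.0120). All 16 interferon gamma targets had a higher mean in responders, 12 with an unadjusted p under 0.05, and their median difference was 0.41. Cxcl10, a chemokine that draws T cells, had the smallest p (0.50, SE 0.14, unadjusted p = 0.00387 in edgeR), followed by Gbp5 (0.53) and Psmb9 (0.30). The others were Gbp2, Igtp, Iigp1, Cxcl9, Gbp3, Gbp7, Irgm2, Nlrc5 and Tap1, with differences from 0.25 to 0.56. The 16 targets summed to 4407 CPM in non-responder 3, against 2296 to 3364 CPM in the other non-responders. In responders they summed to 3591 to 4913 CPM, so non-responder 3 lay within the range of the responders. Of 7 genes that act in T cell receptor signaling below PD-1, 6 had a higher mean in responders and 2 an unadjusted p under 0.05 (median 0.12). These were the kinase genes Zap70 (0.83, unadjusted p = 0.0213 in edgeR) and Lck (0.56, unadjusted p = 0.0257), and Prkcq differed by 0.35 without passing (0.17 without responder 11). Of 12 transcription factor genes linked to T cell exhaustion 11 passed the filter and 6 were higher (median 0.05). Eomes, a factor of NK and effector T cells, was the 1 with an unadjusted p under 0.05 (0.98, SE 0.29, unadjusted p = 0.00474 in edgeR), while Batf (0.44) and Nfatc1 (-0.13) did not pass. Without non-responder 1 Batf was at 0.68 and Nfatc1 at -0.05, and Cd226 at 0.85. Other listed genes that were not called also moved by over 1.5 times with 1 tumor left out: Nectin2 to 0.07 without non-responder 7, Rgmb to -0.06 without non-responder 3, Kyat1 to -0.08 without responder 10, and Tdo2 to -0.16 without responder 11 and -0.45 without responder 5.

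Genes of these lists also rose with the T and NK cell score: 5 costimulatory genes, 3 other inhibitory genes, 3 below PD-1, 2 partners of the receptors and 2 transcription factors, against 1.89% of all features. The counts rested on single tumors: without responder 5 they were 0, 0, 1, 0 and 0, and without responder 11 they were 2, 0, 2, 1 and 1. Of these lists, the gene called without either tumor was Lck (slope 1.19, edgeR adjusted p = 0.00234, and 0.00907 without responder 5), where Pdcd1 and Pdcd1lg2 were also called. The 5 costimulatory genes were Tnfrsf9, Tnfrsf18 and, named here after their values were seen, Icos, Cd27 and Tnfrsf4. The 3 other inhibitory genes were Klrg1, Sirpa and Lilrb4a, the genes below PD-1 were Lck, Zap70 and Pik3cd, the partners were Cd226 and Cd96, and the factors were Eomes and Tbx21, where Pik3cd and Tbx21 were also named after their values were seen. The interferon gamma receptor list and the 16 interferon gamma targets held 1 such gene each, Ifngr2 and Cd74, named likewise. The edgeR adjusted p was 0.0299 for Ifngr2 (0.524 without responder 5). For Cd74 it was 0.01495 (0.0195 without responder 5 and 0.0855 without responder 11). Afmid, which encodes the formamidase that follows IDO1, named likewise, fell with the score (slope -0.45, edgeR adjusted p = 0.0384, and 0.165 without responder 5). This call held in only 2 of the 10 fits with a tumor left out.

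Markers of the cell types a tumor piece can hold were measured beside these genes. NK cell markers summed to 68.5 ± 26.8 CPM in responders, against 34.99 ± 10.98 CPM in non-responders (SD, n = 5), with Prf1 the most abundant (41.8 and 16.8 CPM). T cell markers summed to 35.7 ± 11.4 and 26.9 ± 6.65 CPM, led by Cd3g (5.81 and 3.99 CPM), CD8 markers to 7.08 ± 1.98 and 6.17 ± 2.70 CPM, led by Cd8a, and regulatory T cell markers to 32.9 ± 7.24 and 23.2 ± 4.03 CPM, led by Il2ra. Macrophage markers were 2941 ± 313 and 2711 ± 290 CPM, led by Lyz2, and dendritic cell markers 58.5 ± 4.63 and 63.8 ± 11.6 CPM, led by Itgax. Neutrophil markers, of which 5 of 7 passed the filter with Ly6g and Camp at 0 in at least 1 tumor, were 35.02 ± 12.95 and 22.9 ± 6.53 CPM, led by Csf3r. B cell markers were at 3.18 ± 0.32 and 3.04 ± 0.44 CPM, led by Fcer2a. Skeletal muscle markers, led by Acta1, were 111 ± 47.9 and 150 ± 41.9 CPM, and adipocyte markers, led by Fabp4, 27.0 ± 8.48 and 31.6 ± 13.2 CPM. Endothelial markers, led by Pecam1, were 159 ± 9.76 and 174 ± 15.0 CPM, and 1 of 6 keratinocyte markers, Krt10, passed the filter. The skeletal muscle sum was highest of all tumors in responder 11, at 185 CPM. Regulatory T cell markers summed to 33.9 to 37.8 CPM in responders 9 to 12, above every non-responder (20.4 to 30.2 CPM). The sum was 20.2 CPM in responder 5. Much of it came from Il2ra, with a mean of 15.7 CPM for the responder group and 8.88 CPM for the other. All 5 regulatory T cell markers had a higher mean in responders (median log2 difference 0.28), but only 1 had an unadjusted p under 0.05 in edgeR. Whether the sum follows the number of regulatory T cells was not tested. The part of the cell type markers in the differences of the checkpoint genes was not tested, beyond the fits above that hold a score.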

How the data were processed

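Polyadenylated RNA of 10 tumors, 1 piece per mouse, was sequenced by the authors on an Illumina instrument with paired ends. The authors pseudoaligned the reads with kallisto to the mouse genome GRCm38, summed transcripts to genes with tximport and deposited estimated counts per gene, with no scaling for depth or gene length. The release of the annotation and the use of strand are not given in the sources used here. In the 36009 rows, 43.0% of the values are not whole, since reads shared by transcripts were divided. Within a tolerance of 0.01, those of Pdcd1lg2, Cd86, Cd276, Ido1 and Pdcd1 are whole in all tumors, and those of Cd274, Cd80 and Lag3 in 0.

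Rows of 1 symbol were summed (44 symbols), the 9580 rows without a symbol were kept, and the deposited estimated counts were rounded. A feature was tested if its CPM exceeded 0.366 in 3 or more tumors (15767 features). Group differences and slopes on marker scores (~ group + score) came from edgeR 4.0.16 in R 4.3.3, with TMM normalization, the quasi-likelihood test and Benjamini-Hochberg adjustment over all features at a threshold of 0.05. The biological coefficient of variation was 10.4%. Standard errors are the size of the fitted log2 fold change divided by the root of F. A pseudocount of 1 CPM was used for scores and ratios, and ratios were tested with the exact permutation test over 252 assignments. Positions and lengths are from GENCODE on GRCm38, promoters from RefSeq.

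Groups follow the response in the labels, and p-values measure the spread between mice of 1 experiment. The 10 genes, the gene lists and marker lists were chosen with earlier results of these data known. Named were all 10 genes, the 3 genes of smallest p and any with an unadjusted p under 0.05 of each pathway list, neighbors within 200 kb, the 5 genes most like Cd274 and Pdcd1, and the most abundant gene of each marker list. Some genes that the rule picks are not reported here. Alternatives were DESeq2 1.42.0, limma-voom (limma 3.58.1), other normalizations, filters and pseudocounts, a score as a term, and each tumor left out. The steps were tested on simulated data.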

Additional observations from a re-analysis of the deposited data

Results flagged for a closer look

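For 17 measures (the 10 genes, the ratios and the scores) the highest and lowest tumor of each group were compared with the rest of the group by Dixon's criterion for 5 samples, 34 groups in all, of which chance alone would mark about 1.7. It marked 2. Ido1 in responder 11 was at 6.544 on the log2(CPM + 1) scale, where the other responders were at 5.735 to 5.961. Pdcd1 in responder 5 was at 1.631 on the same scale, where the other responders were at 2.362 to 2.648. Responder 5 was also the lowest responder in the T and NK cell score, at 1.56.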

How the results depend on the processing

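No paired analysis was possible because the groups share no tumor numbers. Of 210 fold changes of the checkpoint genes under the alternatives, 207 kept their direction and their side of the threshold and 3 changed sign. With the T and NK cell score as a term Pdcd1 was at -0.071 and Lag3 at -0.15, as was Cd28 at -0.0095, and with the interferon gamma score as a term Cd86 was at -0.018, none with an adjusted p under 0.999. An unadjusted p under 0.05 in edgeR was left in 2 checkpoint genes and 532 features with the T and NK cell score as a term. The numbers were 4 and 731 with the macrophage score, and 0 and 321 with the interferon gamma score. The count of features that differ between the groups was 1 in DESeq2 and 0 to 9 with a tumor left out, with 9 without responder 5. The difference in the log2 ratio of Cd274 to Pdcd1 ran from 0.29 to 0.54 with a tumor left out, and 0.54 was without non-responder 3. In the main fit 298 features rose and 110 fell with the T and NK cell score. For the macrophage score these were 235 and 22, and for the interferon gamma score 72 and 0. The counts that follow take rising and falling slopes together. Features called for the slope on the T and NK cell score numbered 940 with no group term and 151 to 442 with a tumor left out, and checkpoint genes 6 and 2 to 4. For the macrophage score, checkpoint genes numbered 1 and features 123 with a median score, checkpoint genes 5 in limma-voom, and 6 and 605 with no group term, while with a tumor left out they ran from 0 to 5 and from 14 to 373. For the interferon gamma score they were 3 and 150 with no group term, and 1 to 2 and 36 to 84 with a tumor left out. On that score the slope of Cd276 was 0.00182 with a median score and ran from -0.16 to 0.17 with a tumor left out, and that of Cd80 from -0.052 to 0.40. With a median T and NK cell score the slope of Cd274 did not pass (edgeR adjusted p = 0.106), and with a median macrophage score those of Cd274 and Cd86 did not (0.0521 each). The cause of these changes was not tested. Depth limits genes of few counts, such as Tnfsf18 with 1 to 11 counts in a tumor, Tdo2 with 5 to 15 and Cd96 with 5 to 95. Other scalings moved the median fold change of all features by less than 0.1.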

Other observations

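The genes most like the remaining checkpoint genes were looked up after the values above were seen, as a description over 10 tumors that share their libraries. Among 13065 features, by Pearson r of the deviations from the group means, those most like Pdcd1lg2 were Galnt6 (0.982), Srgn (0.981), Nos2 (0.980), Pygl (0.975) and Rasal3 (0.974). Nos2 encodes the inducible nitric oxide synthase of activated macrophages, and its log2 difference between responders and non-responders was 1.16. Those most like Cd86 were Hk3 (0.989), Cybb (0.972), Slamf8 (0.967) and the complement genes C1qb and C1qc (0.965 each), which macrophages express. Those most like Ido1 were Dennd6b (0.984), Trafd1 (0.973), the class I-related gene H2-T24 (0.951), Fgl2 (0.951) and the interferon-induced Gbp5 (0.938). Those most like Cd276 were Capn1 (0.954), Scara3 (0.946), Pacs1 (0.941), Lmf2 (0.940) and Ptk7 (0.936). Lag3 was most like Gimap1 (0.968), Sla2 (0.965), Xlr4b (0.964), Gimap7 (0.962) and Sod2 (0.960), of which the Gimap genes are expressed in lymphocytes. For Cd80 they were Hic2 (0.978), Cd14 (0.975), Rap1gap2 (0.927), Wdr24 (0.917) and Aqp1 (0.912). For Havcr2 the highest value was 0.942 (Chtf8) and for Tigit 0.921 (Tmem251).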
